A study of Mus musculus with 16 samples.

Results

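The genes described here are 30 components of B cell receptor signalling, taken by symbol from a count table of 39179 genes. They run from the signalling chains of the receptor to the adaptors, kinases and lipid enzymes below it and on to NF-κB and NFAT. By their textbook roles 23 were placed on the activating side (such as Cd79a, Syk and Btk) and 5 on the inhibitory side (Cd22, Cd72, Fcgr2b, Ptpn6 and Inpp5d). Ptprc and Lyn act in both directions and were placed on neither side. All 30 were measured in every library, and all 30 passed the filter on low counts.

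RNA came from B cells of the spleen of NOD.LT mice, a non-obese diabetic strain, culled at 15 weeks of age. The mice of all 4 groups had eaten a treatment diet freely for the last 5 weeks. One group ate NP, whose composition is not given; the feeding protocol names a Gordons diet in its place, and both were taken as 1 diet. The other groups ate HAMS, HAMSA or HAMSB, which are diets with high-amylose maize starch that is plain, acetylated or butyrylated. Spleen lymphocytes were depleted of other cells with an antibody kit and columns, so the B cells themselves carried no selecting antibody. There were 4 libraries for each diet, and they keep their submitted numbers. The NP libraries are 1, 3, 4 and 5. For HAMS they are 1, 4, 5 and 6, for HAMSA 1, 2, 3 and 6, and for HAMSB 1, 2, 5 and 6. What animal stands behind a number is not stated, and the design text speaks of triplicates beside its 4 samples per group.

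The B cell receptor consists of a membrane immunoglobulin that binds antigen and the Cd79a and Cd79b chains that signal. When antigen clusters it, Src family kinases phosphorylate those chains, Syk and Btk are recruited, and adaptors such as Blnk bring in phospholipase Plcg2 and the lipid kinase PI3K. Calcium, diacylglycerol and PIP3 then switch on NFAT, Ras and NF-κB. Inhibitory receptors such as Cd22 and Fcgr2b recruit the phosphatases encoded by Ptpn6 (SHP-1) and Inpp5d (SHIP1), which hold the response down.

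Between 15053965 and 46206200 reads per library were assigned to genes, and the 30 genes held between 1.83% and 2.13% of them. HAMSA libraries were the shallowest (15053965 to 30723337 counts) and had the fewest reads outside exons, on average 11.3% ± 1.09 (SD, n = 4), where the other diets averaged 13.8% to 14.8%. Single counts of these genes ran from 1023 (Stap1) to 111685 (Cd22). Over all 15021 genes tested, the fit's common estimate of variation between libraries of a diet was 22.1%. Some of the 30 genes, such as Btk in NP, varied less than that. Markers of B cell identity, 15 genes such as Ms4a1 and Pax5, summed to between 34830 and 55100 CPM (counts scaled to library size by TMM) in every library. Markers of other spleen cells were present at lower levels and differed between diets. The 14 red cell markers, 13 of them tested, summed to 628 to 6603 CPM in HAMSA, 128 to 1554 in NP, 118 to 204 in HAMS and 103 to 1707 in HAMSB. Neutrophil markers summed to 88.0 to 357 CPM in HAMSA, 13.1 to 78.2 in NP, 8.88 to 123 in HAMS and 53.5 to 304 in HAMSB. Platelet markers had 382 to 783 CPM in HAMS and 228 to 546 in the other diets, plasma cell markers ran from 904 to 2077 CPM, dendritic cell markers from 32.1 to 127 and NK cell markers from 13.6 to 75.2. The 20 T cell markers summed to 203 to 252 CPM in NP, 186 to 385 in HAMS, 301 to 531 in HAMSA and 249 to 622 in HAMSB. The 16 macrophage and monocyte markers summed to 259.5 to 589 CPM in NP, 144 to 281 in HAMS, 256 to 434 in HAMSA and 168 to 459 in HAMSB. None of these markers was at 0 in all libraries of a diet. These are bulk samples, in which fewer cells of a type and less RNA per cell cannot be told apart.

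Per exon length, the receptor's signalling chains stood far above the rest. In NP libraries Cd79a averaged 1392 CPM per kb of exon and Cd79b 1245. Cd22 followed with 486 and Ptpn6 with 415, so that an inhibitory receptor and its phosphatase came next after the chains themselves. The Src family kinase gene Blk stood at 262 and Syk at 254 CPM per kb. At the lower end were Stap1 with 22.2, Bcl10 with 20.1 and Pik3r1, the regulatory subunit of PI3K, with 12.1 CPM per kb. This wide span of levels between genes was kept in every diet, and the spread of Cd79a and Cd79b over libraries overlapped between all 4 diets.

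**Figure D1:**
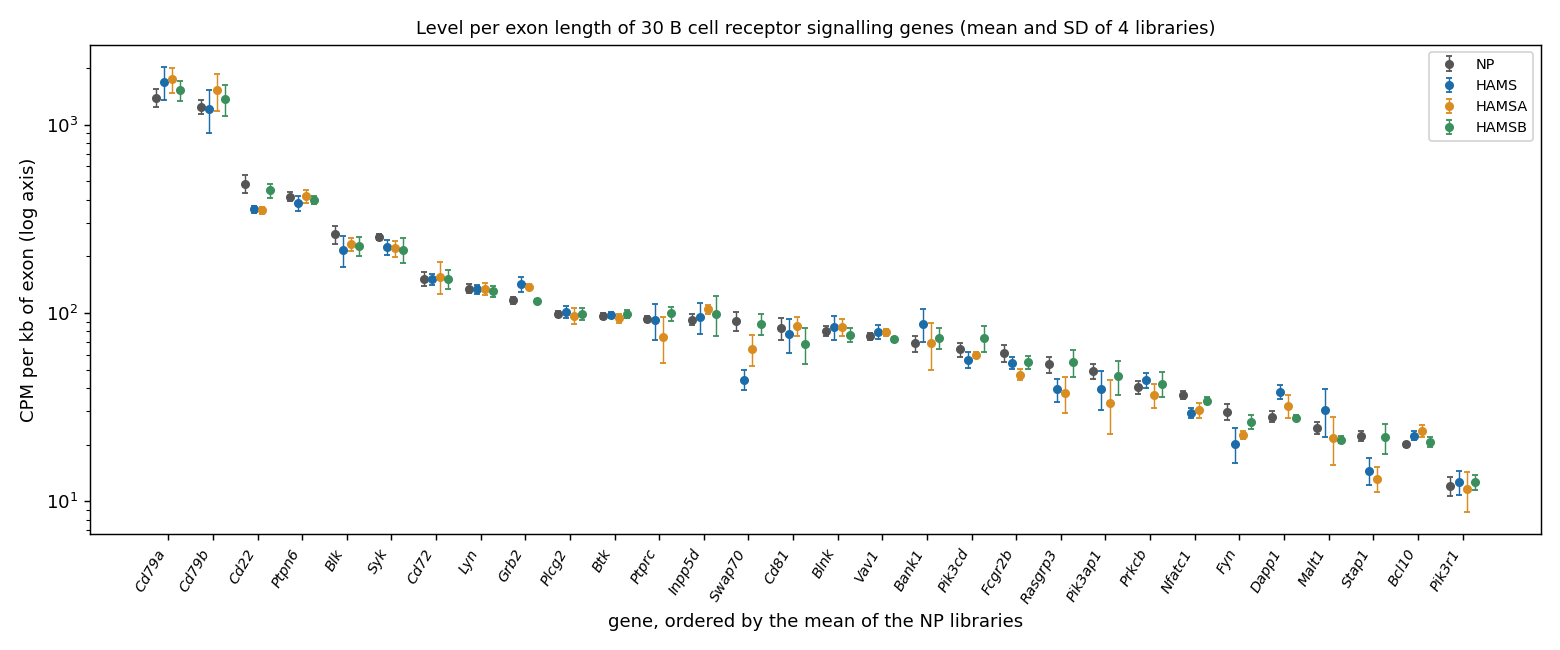
Level of each of the 30 genes in CPM per kb of exon (log axis), as the mean and SD of 4 libraries for each diet, with genes ordered by their mean in NP. Cd79a and Cd79b lie above all other genes in every diet (1392 and 1245 CPM per kb in NP), Pik3r1 is lowest with 12.1 CPM per kb in NP, and Swap70 and Stap1 show the widest separation of diet means.

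The highest diet mean was less than 1.5 times the lowest for 28 of 30 genes, and the exceptions were Swap70 (2.05 times) and Stap1 (1.69 times). Fyn (1.478 times), Pik3ap1 (1.473), Rasgrp3 (1.455) and Malt1 (1.442) lay just below that mark. The share of all genes below it is not given here. A test of any difference among the 4 diets passed for 4 of 30 genes, while it passed for 3.78% of all 15021 genes tested. They were Swap70 (adjusted p = 0.00275), Stap1 (0.00887), Cd22 (0.0191) and Dapp1 (0.0252), by edgeR's quasi-likelihood F-test with Benjamini-Hochberg adjustment over all genes. The next genes, Grb2 (0.0511) and Fyn (0.0568), missed the threshold of 0.05. Of the pairwise comparisons below, those with a diet in common share its libraries and are not independent of each other.

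HAMS against NP asks what the plain starch diet changes and held the most calls. Dapp1 rose, and Swap70, Cd22, Fyn, Stap1 and Nfatc1 fell. These are 6 of 30 genes, where the test called 4.33% of all genes (2.27% higher and 2.06% lower). The libraries of the 2 diets did not overlap for 9 of the 30, against 12.6% of all genes. The median log2 fold change of the 30 was −0.02 beside 0.01 over all genes, and the median size of change was 0.18 beside 0.20. The count of calls changed with single libraries, to 1 without NP 3 or without NP 4 and 3 without NP 5 or without HAMS 4. Over the 8 omissions the calls among all genes changed too, from 235 to 703, beside 650 with every library.

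HAMSB against HAMS asks what butyrylation of the starch changes. Swap70 rose and Dapp1 fell, the reverse of their differences in HAMS against NP, a comparison that uses the same HAMS libraries. The test called 1.68% of all genes here (0.433% higher and 1.24% lower), and 8 of the 30 genes had libraries that did not overlap, against 7.3% of all genes. The median log2 fold change was 0.01 for the 30 genes and also 0.01 for all genes. With libraries scaled by their totals in place of TMM, 5 genes were called, 4 higher and 1 lower, in place of 1 and 1. The share of all genes called with that scaling is not given here.

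HAMSA against NP called Stap1 and Cd22, both lower, against 1.41% of all genes (0.606% higher and 0.806% lower). Of the 30 genes 7 had libraries that did not overlap, against 16.4% of all genes, and the median log2 fold change was −0.06. The count was 0 without NP 3, NP 4, NP 5, HAMSA 1 or HAMSA 2, 3 without NP 1 or HAMSA 3, and 4 without HAMSA 6. Over these 8 omissions the calls among all genes ran from 0 to 589. Markers of other cells also differed in their fitted values here. All 20 T cell markers and all 13 neutrophil markers had values above 0 (medians 2.34 and 2.60 in log2, 19 and 13 with an unadjusted p under 0.05, 1 called of each), as did the 13 red cell markers (median 2.22, 8 and 0), and 13 of 16 macrophage markers were below 0 (median −0.77, 9 and 0). Their part in the values of Stap1 and Cd22 was not tested. HAMSA against HAMSB, which sets the acetylated against the butyrylated starch, called Stap1 alone, lower in HAMSA, against 0.779% of all genes (0.586% higher and 0.193% lower). Here too 7 genes did not overlap, against 8.81% of all genes.

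HAMSA against HAMS called 0 of the 30 genes by edgeR, as it called 0% of all genes. At an unadjusted p under 0.05 there were 5 of the 30 genes and 1751 of all genes, and DESeq2 called 1 of the 30, Swap70 (adjusted p = 0.0432). The libraries did not overlap for 2 genes, Swap70 and Fcgr2b, against 4.01% of all genes. HAMSB against NP called 0 of the 30 by edgeR and 0 by DESeq2, and none had an unadjusted p under 0.05, while 0.0732% of all genes were called, 11 of them lower and 0 higher. Malt1 was the 1 gene whose libraries did not overlap, against 5.27% of all genes.

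**Figure D2:**
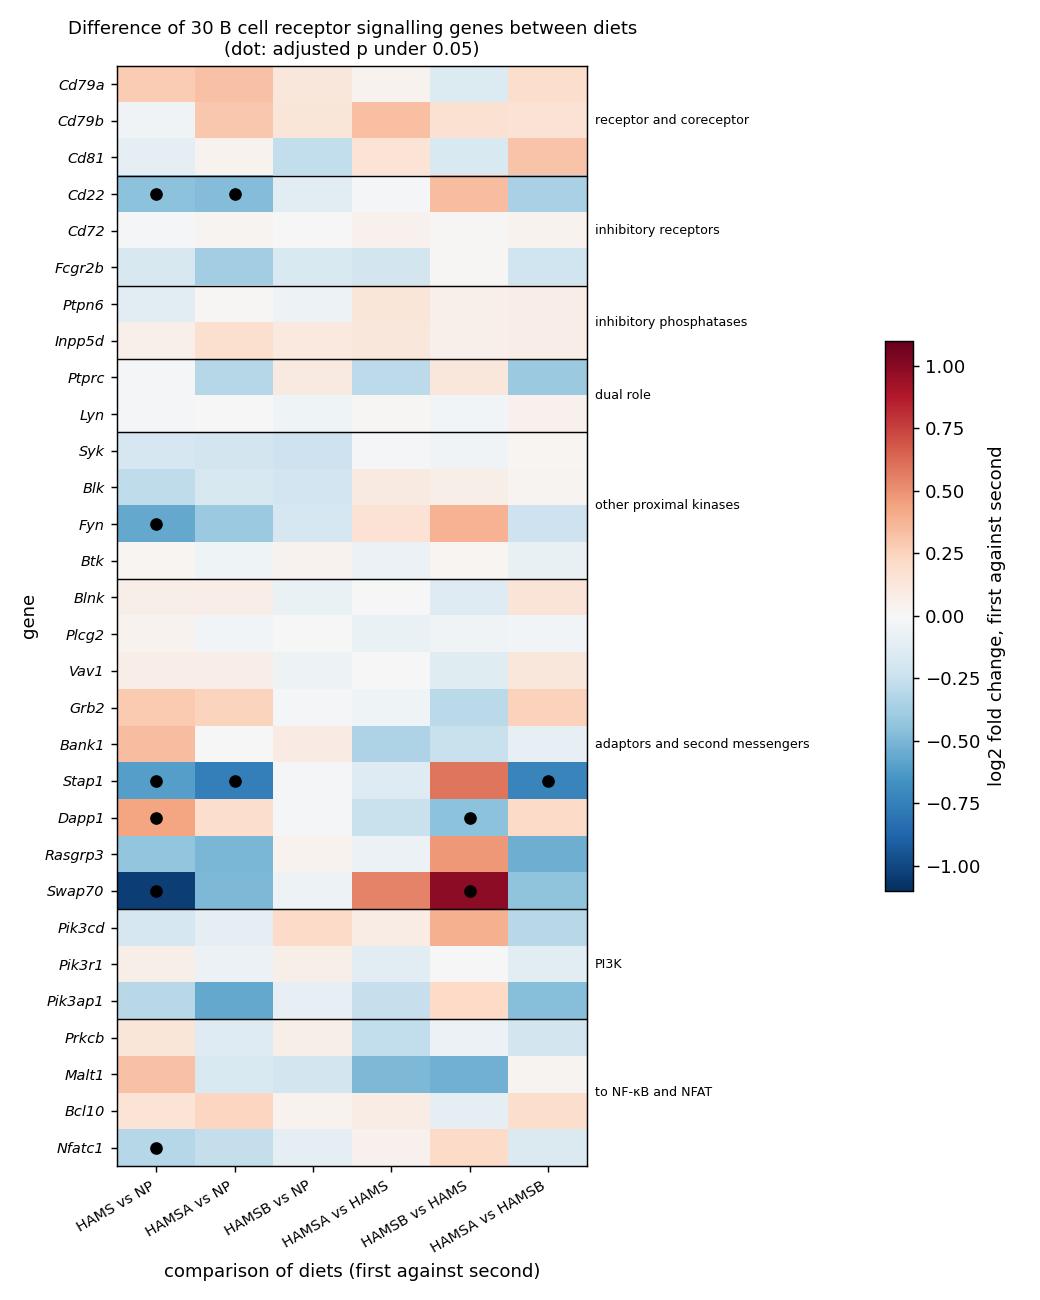
Log2 fold change of the 30 genes (rows, grouped by role) in the 6 comparisons of diets (columns), coloured from blue (lower in the first-named diet) to red (higher). Black dots mark the 11 values with an adjusted p under 0.05, of which 6 lie in HAMS against NP and none in HAMSA against HAMS or HAMSB against NP.

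Swap70, Cd22, Fyn and Dapp1 are shown with the 300 bases around a start site, because their levels in HAMS differed from NP and a promoter window was at hand. The windows are from RefSeq (GRCm38.p6), run 5′ to 3′ on the gene's own strand from 250 bases before the start to 50 bases after it, and are written in lower case. Windows were found for 24 of the 30 genes (31 windows). Capitals mark matches on either strand to 4 short motifs of B cell and signal-dependent factors, which are the octamer (ATGCAAAT), the EBF1 core (TCCC and GGGA with any 2 bases between), the PU.1 core (GAGGAA) and the CRE core (TGACG).
Swap70, chr7:110221453-110221752, plus strand: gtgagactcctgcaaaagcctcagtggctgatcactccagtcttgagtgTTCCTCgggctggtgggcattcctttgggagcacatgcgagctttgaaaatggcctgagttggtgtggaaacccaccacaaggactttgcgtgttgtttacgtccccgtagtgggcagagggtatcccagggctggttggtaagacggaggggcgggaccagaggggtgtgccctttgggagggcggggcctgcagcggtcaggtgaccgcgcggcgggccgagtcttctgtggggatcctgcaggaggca
Cd22, chr7:30878979-30879278, minus strand: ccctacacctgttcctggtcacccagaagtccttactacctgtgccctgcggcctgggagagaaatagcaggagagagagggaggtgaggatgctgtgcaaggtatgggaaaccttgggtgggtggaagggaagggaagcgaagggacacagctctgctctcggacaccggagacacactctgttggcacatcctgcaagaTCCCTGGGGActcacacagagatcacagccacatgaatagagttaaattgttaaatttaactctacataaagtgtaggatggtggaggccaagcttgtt
Fyn, chr10:39369549-39369848, plus strand: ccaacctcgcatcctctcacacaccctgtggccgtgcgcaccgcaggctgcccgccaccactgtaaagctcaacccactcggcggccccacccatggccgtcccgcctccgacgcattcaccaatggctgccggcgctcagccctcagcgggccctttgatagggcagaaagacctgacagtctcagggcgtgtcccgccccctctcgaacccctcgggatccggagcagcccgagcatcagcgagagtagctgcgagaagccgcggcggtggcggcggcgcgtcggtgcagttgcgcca
Dapp1, chr3:137981500-137981799, minus strand: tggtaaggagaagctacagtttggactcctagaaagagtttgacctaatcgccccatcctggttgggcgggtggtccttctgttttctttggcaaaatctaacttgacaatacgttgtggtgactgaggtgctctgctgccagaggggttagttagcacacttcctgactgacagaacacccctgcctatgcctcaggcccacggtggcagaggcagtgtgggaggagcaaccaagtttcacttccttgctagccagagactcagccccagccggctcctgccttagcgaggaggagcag
The Cd22 window holds 1 EBF1 core and the Swap70 window 1 PU.1 core, read on the other strand, while the Fyn and Dapp1 windows hold none of the 4 motifs. No matches overlapped in these windows. Of all 32851 windows, 0.904% hold the EBF1 core, 28.3% the PU.1 core, 1.74% the octamer and 20.8% the CRE core. Among the 31 windows of the 30 genes, 1 holds the EBF1 core, 11 the PU.1 core, 2 the octamer and 3 the CRE core. The Fyn window is the richest in GC (69.0%, with 31 CpG) and the Cd22 window the poorest (52.3%, with 4 CpG), while Swap70 has 61.3% and 14 and Dapp1 54.7% and 6.

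Among the receptor and its coreceptor, Cd79a and Cd79b, the signalling chains, and Cd81, a tetraspanin of the coreceptor complex, did not pass the test in any comparison over all libraries by edgeR, and DESeq2 called none of them. Among libraries numbered 1 to 4 alone, edgeR called Cd79a higher in HAMS against NP (0.57, adjusted p = 0.0433) and in HAMSA against NP (0.45, adjusted p = 0.0425), and Cd79b higher in HAMSA against NP (0.48, adjusted p = 0.0334). Cd79a averaged 2028 ± 215 CPM in NP, 2466 ± 486 in HAMS, 2540 ± 390 in HAMSA and 2216 ± 269 in HAMSB (SD, n = 4 each). Its smallest p was in HAMSA against NP, where the log2 fold change was 0.32 (95% interval 0.0016 to 0.65) with an unadjusted p of 0.0490 and an adjusted p of 0.198 by edgeR. Cd79b averaged 1781 ± 156, 1739 ± 453, 2182 ± 488 and 1955 ± 363 CPM in the same order. Both chains spread widely within HAMS, where HAMS 5 had the lowest values (1905 and 1269 CPM) and HAMS 1 had 2768 and 2209. Cd81 stood at 198 ± 43.2 CPM in HAMSB and 246 ± 28.0 in HAMSA, with NP and HAMS between them.

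Cd22, a sialic acid-binding receptor that recruits SHP-1, lies at chr7:30865402-30880342 on the minus strand (GRCm38). It had 2054, 2569, 2584 and 2604 CPM in NP libraries 1, 3, 4 and 5 and 1826, 1803, 1862 and 1664 in HAMS libraries 1, 4, 5 and 6. It had 1772, 1680, 1858 and 1760 CPM in HAMSA libraries 1, 2, 3 and 6 and 2203, 2014, 2409 and 2406 in HAMSB libraries 1, 2, 5 and 6. Every HAMS and HAMSA library thus lay below every NP and HAMSB library. Cd22 fell in HAMS against NP by 0.46 ± 0.10 on the log2 scale (SE; adjusted p = 0.0181, edgeR) and in HAMSA against NP by 0.47 ± 0.10 (adjusted p = 0.0388, edgeR). Between HAMSB and HAMS the log2 fold change was 0.34 ± 0.10 and missed the threshold (adjusted p = 0.126), as it did between HAMSA and HAMSB (−0.35 ± 0.10, adjusted p = 0.112). DESeq2 called both (adjusted p = 0.0130 and 0.00665), and edgeR called the first with totals in place of TMM (adjusted p = 0.0466). The call in HAMS against NP ended without NP 3, NP 4, NP 5 or HAMS 6 (adjusted p 0.0551 to 0.0745), and that in HAMSA against NP ended without NP 3, NP 4, NP 5, HAMSA 1 or HAMSA 2 (0.0827 to 0.153). With the percentage of reads outside exons in the model, HAMSA against NP gave −0.36 (adjusted p = 0.319), and the part of that percentage in the result cannot be told apart from the diet.

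The other inhibitory genes did not pass in any comparison by edgeR with TMM over all libraries. Cd72, a lectin-like receptor that recruits SHP-1, averaged 521 ± 43.8, 516 ± 33.03, 533 ± 103 and 520 ± 61.4 CPM in NP, HAMS, HAMSA and HAMSB. Its log2 fold change in HAMS against NP was −0.014, with a 95% interval of −0.28 to 0.26. A change of the size seen for Cd22 in that comparison lies outside this interval. Fcgr2b, the IgG Fc receptor that recruits SHIP1, averaged 355 ± 38.4 CPM in NP, 314 ± 22.3 in HAMS, 273 ± 18.8 in HAMSA and 317 ± 23.98 in HAMSB. The HAMSA libraries (245.5 to 289 CPM) lay below all NP libraries (308 to 397) and all HAMS libraries (295 to 346), and HAMSA against NP came close to the threshold at −0.38 ± 0.096 (adjusted p = 0.0581, edgeR). It was called there by DESeq2 (adjusted p = 0.0052), by edgeR with totals in place of TMM (0.0378) and by edgeR among libraries numbered 1 to 4 (0.0465).

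For both phosphatase genes the libraries of every pair of diets overlapped. Ptpn6 averaged 1164 ± 61.3 CPM in NP, 1072 ± 97.9 in HAMS, 1172 ± 94.1 in HAMSA and 1117 ± 59.3 in HAMSB. Inpp5d averaged 701 ± 48.3, 726 ± 137, 794 ± 42.8 and 754 ± 179 CPM in the same order. For Ptpn6 the 95% interval of HAMS against NP ran from −0.32 to 0.08 on the log2 scale, and for Inpp5d the interval ran from −0.29 to 0.39. None of their comparisons had an unadjusted p under 0.05.

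Lyn, the Src family kinase that both starts the signal and phosphorylates inhibitory receptors, showed one of the narrowest spreads. Its diet means ran from 531 CPM in HAMSB to 548 in NP, and in HAMS against NP its 95% interval was −0.19 to 0.17 (log2). Ptprc encodes CD45, the phosphatase that removes both activating and inhibitory phosphates from Src family kinases. It ranged from 1645 to 1783 CPM in NP and from 1278 to 2025 in HAMS. In HAMSA it ran from 937 to 1695 CPM, below every HAMSB library (1720 to 2049), with a log2 fold change of −0.41 ± 0.18 against HAMSB that missed the threshold (adjusted p = 0.241, edgeR).

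Of the other proximal kinases Fyn was called and Syk, Blk and Btk were not. Fyn encodes a Src family kinase that T cells use as well as B cells, at chr10:39368855-39565381 on the plus strand. NP libraries 1, 3, 4 and 5 had 126, 128, 149.5 and 119 CPM, and HAMS libraries 1, 4, 5 and 6 had 62.2, 105, 89.5 and 97.0. HAMSA libraries had 101, 91.4, 102 and 98.9 CPM and HAMSB libraries 109, 105, 121 and 126. All NP libraries stood above all HAMS and HAMSA libraries, and HAMS 1 was the lowest of the 16. Fyn fell in HAMS against NP by 0.56 ± 0.13 on the log2 scale (SE; adjusted p = 0.0218, edgeR), a call that ended without NP 3 or NP 4 (0.0619 and 0.0876). In HAMSA against NP it gave −0.41 ± 0.13 (adjusted p = 0.0897) and in HAMSB against HAMS 0.38 ± 0.13 (adjusted p = 0.187). The HAMSA difference was called by DESeq2 (adjusted p = 0.0446) and by edgeR with only the 2 diets compared (adjusted p = 0.0487). The summed T cell markers overlapped between NP and HAMS, and their mean was higher in HAMS (283 CPM), HAMSA (419) and HAMSB (415) than in NP (218.5). Their part in the values of Fyn was not tested.

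Syk, the kinase that binds the phosphorylated receptor chains, averaged 2374 ± 91.3 CPM in NP and between 2031 and 2088 in the starch diets. Its log2 fold change in HAMSB against NP was −0.23 with a 95% interval of −0.47 to 0.023. Blk, a Src family kinase of B cells, averaged 707 ± 76.8 CPM in NP, and its lowest mean was 584 ± 108 in HAMS. Btk, which phosphorylates Plcg2, had means between 295 and 313 CPM, and in HAMS against NP its 95% interval ran from −0.14 to 0.17.

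Swap70 showed the largest differences among the 30 genes and is an adaptor that binds PIP3 and actin in B cells. It lies at chr7:110221711-110283506 on the plus strand. NP libraries 1, 3, 4 and 5 had 615, 768, 807 and 748 CPM, and HAMS libraries 1, 4, 5 and 6 had 379, 408, 315 and 332. HAMSA libraries 1, 2, 3 and 6 had 485, 499, 666 and 438 CPM, and HAMSB libraries 1, 2, 5 and 6 had 648, 619, 745 and 821. All 4 HAMS libraries lay below every library of the other diets, NP and HAMSB libraries overlapped over most of their range, and HAMSA libraries stood between, with HAMSA 3 inside the NP range. Swap70 fell in HAMS against NP by 1.04 ± 0.14 on the log2 scale (SE; adjusted p = 0.00133, edgeR) and rose in HAMSB against HAMS by 0.98 ± 0.14 (adjusted p = 0.00223, edgeR). Both calls held when any 1 of the 8 libraries compared was left out, with adjusted p up to 0.00814 and 0.0123.

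In HAMSA against HAMS Swap70 differed by 0.54 ± 0.14 (log2), with an adjusted p of 0.300 by edgeR. HAMSA against NP gave −0.49 ± 0.14 (adjusted p = 0.0706) and HAMSA against HAMSB −0.44 ± 0.14 (adjusted p = 0.146), with none past the threshold by edgeR. DESeq2 called all 3 (adjusted p = 0.0432, 0.0178 and 0.0492). HAMSB against NP gave −0.052 with a 95% interval of −0.35 to 0.25, which leaves out a change as large as that in HAMS. Between libraries numbered 1 to 4 the log2 fold change of HAMSB against HAMS was 0.68 (adjusted p = 0.118), and between those numbered 5 and 6 it was 1.28 (adjusted p = 0.0157). HAMS against NP gave −0.89 (adjusted p = 0.0162) and −1.22 in the same groups of libraries. The first value sets HAMS 1 and HAMS 4 against NP 1, NP 3 and NP 4. The second sets HAMS 5 and HAMS 6 against NP 5 alone.

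Stap1, an adaptor phosphorylated by Tec family kinases, lies at chr5:86071746-86106125 on the plus strand. NP libraries 1, 3, 4 and 5 had 131, 137, 149 and 134 CPM, and HAMS libraries 1, 4, 5 and 6 had 70.7, 87.3, 102 and 103. HAMSA libraries 1, 2, 3 and 6 had 86.4, 75.9, 68.1 and 97.1 CPM and HAMSB libraries 1, 2, 5 and 6 had 121, 109, 160.4 and 153. All HAMS and HAMSA libraries lay below all NP and HAMSB libraries, as they did for Cd22. Stap1 fell in HAMS against NP by 0.61 ± 0.14 (log2, SE; adjusted p = 0.0268) and in HAMSA against NP by 0.75 ± 0.14 (adjusted p = 0.0325), both by edgeR. In HAMSA against HAMSB it fell by 0.73 ± 0.14 (adjusted p = 0.0273, edgeR), and in HAMSB against HAMS the value of 0.59 ± 0.14 missed the threshold (adjusted p = 0.0534). That last comparison was called by DESeq2 (adjusted p = 0.00921) and by edgeR with totals in place of TMM (0.0272), with a filter of 1 CPM in 4 libraries (0.0428) and with the percentage of reads outside exons in the model (0.0208).

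These calls of Stap1 were close to the threshold. The one in HAMS against NP ended without NP 3, NP 4, NP 5, HAMS 1 or HAMS 4 (adjusted p 0.0518 to 0.0909), and the one in HAMSA against NP ended without NP 3, NP 4, NP 5, HAMSA 1 or HAMSA 2 (0.0644 to 0.124). The one in HAMSA against HAMSB ended without HAMSA 1, HAMSA 2, HAMSA 3, HAMSB 1, HAMSB 5 or HAMSB 6 (0.0516 to 0.117). With the percentage of reads outside exons in the model, HAMSA against NP gave −0.41 (adjusted p = 0.327) and HAMSA against HAMSB −0.38 (adjusted p = 0.540), while HAMS against NP was still called (−0.51, adjusted p = 0.00871). HAMSB against NP gave −0.022 (95% interval −0.33 to 0.28).

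Dapp1 encodes Bam32, an adaptor that PIP3 draws to the membrane, and lies at chr3:137931007-137981545 on the minus strand. NP libraries 1, 3, 4 and 5 had 126, 109, 111 and 119 CPM, and HAMS libraries 1, 4, 5 and 6 had 148, 156, 176 and 149.7. HAMSA libraries had 142, 119, 115 and 153 CPM and HAMSB libraries 118, 114, 116 and 111. HAMS libraries lay above all NP and HAMSB libraries, and HAMSA libraries were split, with HAMSA 1 and HAMSA 6 near the HAMS range and HAMSA 2 and HAMSA 3 within that of NP. Dapp1 rose in HAMS against NP by 0.44 ± 0.095 (log2, SE; adjusted p = 0.0162, edgeR) and fell in HAMSB against HAMS by 0.46 ± 0.095 (adjusted p = 0.0202, edgeR). The first call ended without NP 3, NP 4 or HAMS 4 (adjusted p 0.0507 to 0.0743), and the second without any of the HAMSB libraries, HAMS 4 or HAMS 5 (0.0501 to 0.0747). Dapp1 was the 1 called member higher in HAMS than in NP.

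Grb2, an adaptor that links phosphorylated proteins to Ras, had a pattern like that of Dapp1 in NP, HAMS and HAMSB, just outside the threshold. NP libraries had 349, 345, 348 and 319 CPM, HAMS libraries 381, 472, 405 and 403, HAMSA libraries 391, 417, 394 and 407, and HAMSB libraries 352, 329, 338 and 331. Every HAMS and HAMSA library lay above every NP and HAMSB library, whereas the HAMSA libraries were split for Dapp1. The log2 fold change was 0.29 ± 0.080 in HAMS against NP (adjusted p = 0.0529, edgeR) and −0.30 ± 0.080 in HAMSB against HAMS (adjusted p = 0.0820, edgeR). DESeq2 called both (adjusted p = 0.00119 and 0.000998), and edgeR called the first with a filter of 1 CPM in 4 libraries, without immunoglobulin genes and with the percentage of reads outside exons in the model (0.0357 to 0.0486). HAMSA against NP gave 0.24 ± 0.080 (adjusted p = 0.0972, edgeR) and HAMSA against HAMSB 0.25 ± 0.080 (adjusted p = 0.142, edgeR). These 2 were also called by DESeq2 (adjusted p = 0.0173 and 0.0158).

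Rasgrp3, a diacylglycerol-activated exchange factor for Ras, varied more between libraries. NP libraries had 274, 318, 345 and 307 CPM, HAMS libraries 186, 261, 243 and 228, HAMSA libraries 224, 189, 181 and 284, and HAMSB libraries 290.2, 262, 382 and 343. HAMS libraries lay below NP and HAMSB libraries, by a narrow gap, while HAMSA 6 reached into the NP range. The log2 fold change was −0.44 ± 0.15 in HAMS against NP (adjusted p = 0.126, edgeR) and 0.48 ± 0.15 in HAMSB against HAMS (adjusted p = 0.160, edgeR). It was −0.54 ± 0.15 in HAMSA against HAMSB (adjusted p = 0.112, edgeR) and −0.50 ± 0.15 in HAMSA against NP (adjusted p = 0.0820, edgeR). None of the 4 passed by edgeR over all libraries without a replicate block, and DESeq2 called the last 2 (adjusted p = 0.0290 and 0.0337). Among libraries numbered 1 to 4, edgeR called HAMSA against NP (0.0205).

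**Figure D3:**
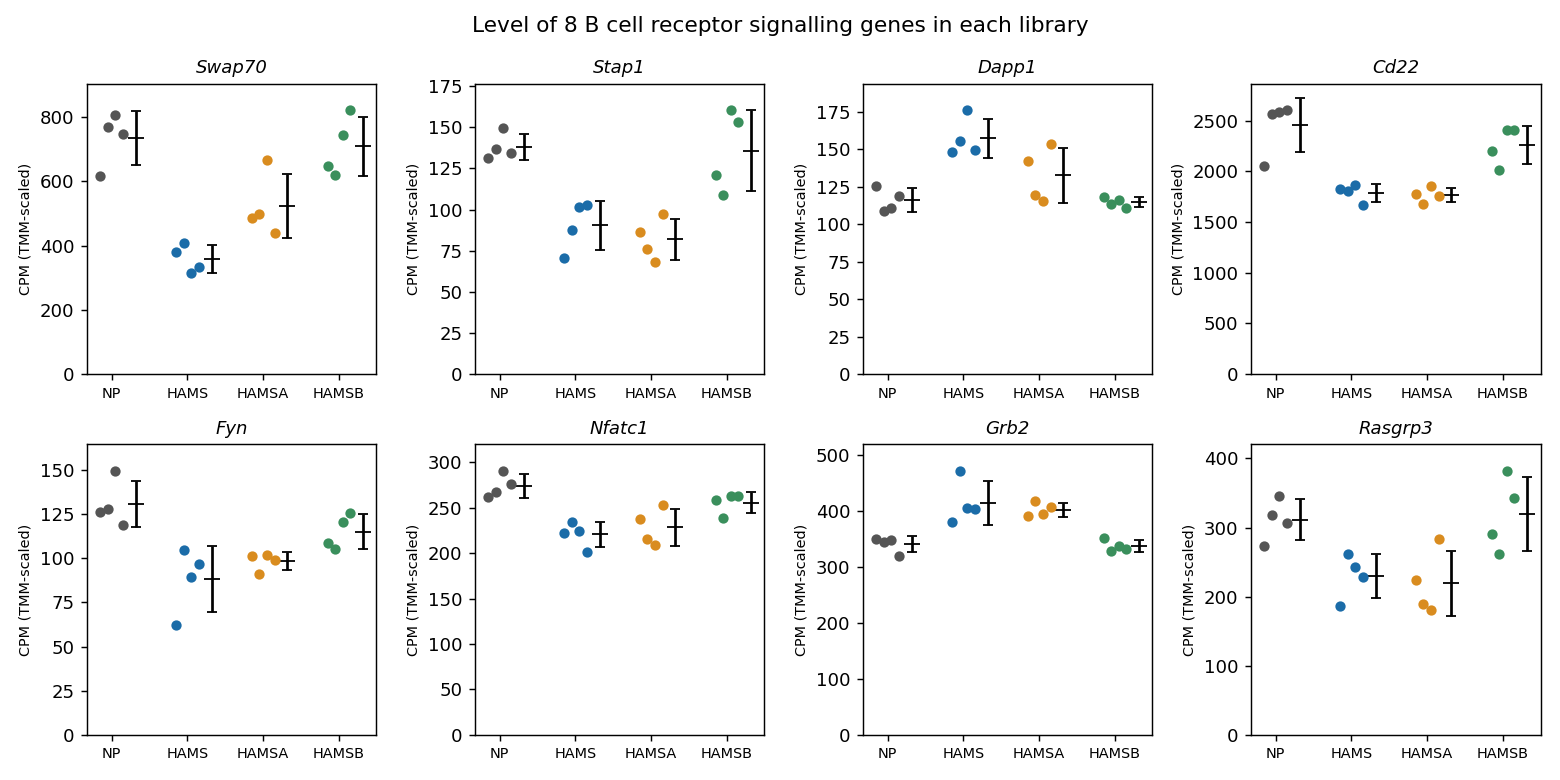
CPM (TMM-scaled) of 8 genes in each library, with points for the 4 libraries of a diet in the order of their numbers and bars for the mean and SD. Swap70 in HAMS (315 to 408 CPM) lies below all other libraries, Cd22 and Stap1 are low in HAMS and HAMSA, and Dapp1 and Grb2 are higher in HAMS than in NP and HAMSB.

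The remaining adaptors and second messenger genes were not called in any comparison by edgeR or DESeq2. Plcg2, the phospholipase that releases calcium and diacylglycerol, had means between 416 and 437 CPM, and in HAMS against NP its 95% interval was −0.15 to 0.23 (log2). Blnk, the scaffold for Btk and Plcg2, ranged from 458 to 506 CPM in its diet means, and Vav1, an exchange factor for Rac, from 267 to 293. Bank1, a scaffold that tunes calcium release, averaged 653 ± 131 CPM in HAMS and 516 ± 49.9 in NP. Its HAMS libraries ran from 492 to 770.3 CPM, and the 95% interval of HAMS against NP, −0.052 to 0.73, was wide.

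The PI3K genes were also not called by edgeR with TMM over all libraries. Pik3cd encodes the catalytic subunit p110δ of leukocytes. It had 314 to 398 CPM in HAMS, 390.3 to 547 in HAMSB, 356 to 387 in HAMSA and 355 to 434 in NP. HAMSB against HAMS gave 0.39 ± 0.11 (adjusted p = 0.104, edgeR), and it was called by DESeq2 (adjusted p = 0.0257) and by edgeR with totals in place of TMM (0.0477). Pik3ap1, which encodes the adaptor BCAP, had 274 ± 26.3 CPM in NP and 186 ± 58.8 in HAMSA (log2 fold change −0.56 ± 0.21, adjusted p = 0.136, edgeR), with HAMSA 6 at 261 CPM within the NP range of 244 to 306. Among libraries numbered 1 to 4, edgeR called this difference (−0.78, adjusted p = 0.0239). Pik3r1 had diet means between 117 and 127 CPM.

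Toward NF-κB and NFAT, Nfatc1 was called in HAMS against NP. It encodes a calcium-driven transcription factor that B cells induce and lies on chromosome 18. NP libraries had 262, 267, 291 and 277 CPM, HAMS libraries 222, 234, 225 and 202, HAMSA libraries 237, 215, 209 and 254, and HAMSB libraries 259, 239, 263 and 263. All NP libraries lay above all HAMS and HAMSA libraries. Nfatc1 fell in HAMS against NP by 0.31 ± 0.082 on the log2 scale (adjusted p = 0.0426, edgeR), and this call ended without any 1 of the 8 libraries (adjusted p 0.0519 to 0.149). HAMSA against NP gave −0.26 ± 0.082 (adjusted p = 0.0873, edgeR) and was called by DESeq2 (0.0229) and by edgeR among libraries numbered 1 to 4 (0.0477).

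Malt1, a protease on the way to NF-κB, spread widely in HAMS, with 397, 474, 756 and 589 CPM in libraries 1, 4, 5 and 6. In HAMSB it stood at 386, 363, 399 and 388 CPM, below all NP libraries (417 to 486), and the log2 fold change of HAMSB against HAMS was −0.53 ± 0.19 (adjusted p = 0.227, edgeR). HAMSA libraries ran from 282 to 523 CPM. Bcl10, its partner, had 88.2 to 94.2 CPM in NP and 95.6 to 107 in HAMS, and HAMS against NP gave 0.15 ± 0.074 (adjusted p = 0.286, edgeR). HAMSA libraries (101 to 119 CPM) lay above all NP libraries, at 0.23 ± 0.074 (adjusted p = 0.0900, edgeR; 0.0237 by DESeq2). Prkcb, the kinase that starts this branch, had diet means between 279.6 and 337 CPM and was not called.

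The balance of inhibitory to activating genes was expressed as the mean log2 CPM of the 5 inhibitory genes minus that of the 23 activating genes. Grb2, which is also known to restrain calcium in B cells, was counted as activating. It was 1.16 ± 0.05 in NP (SD, n = 4; 1.08 to 1.19), 1.104 ± 0.07 in HAMS (1.01 to 1.16), 1.15 ± 0.15 in HAMSA (0.996 to 1.36) and 1.14 ± 0.09 in HAMSB (1.02 to 1.23). Libraries of all 4 diets overlapped. The mean of HAMS was 0.054 lower than that of NP, and HAMSB and HAMSA stood 0.0364 and 0.0437 above HAMS, where the SD within a diet ran from 0.05 to 0.15. The inhibitory mean ran from 9.50 to 9.57 in HAMS against 9.56 to 9.74 in NP, where NP 1 alone reached into the HAMS range. The activating mean ran from 8.34 to 8.50 in HAMS against 8.47 to 8.55 in NP, and HAMS 4 lay within the NP range. By fitted fold changes in HAMS against NP, the median was −0.12 for the 5 inhibitory genes (1 called, Cd22) and 0.02 for the 23 activating genes (1 higher and 4 lower). No test was made of this score.

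**Figure D4:**
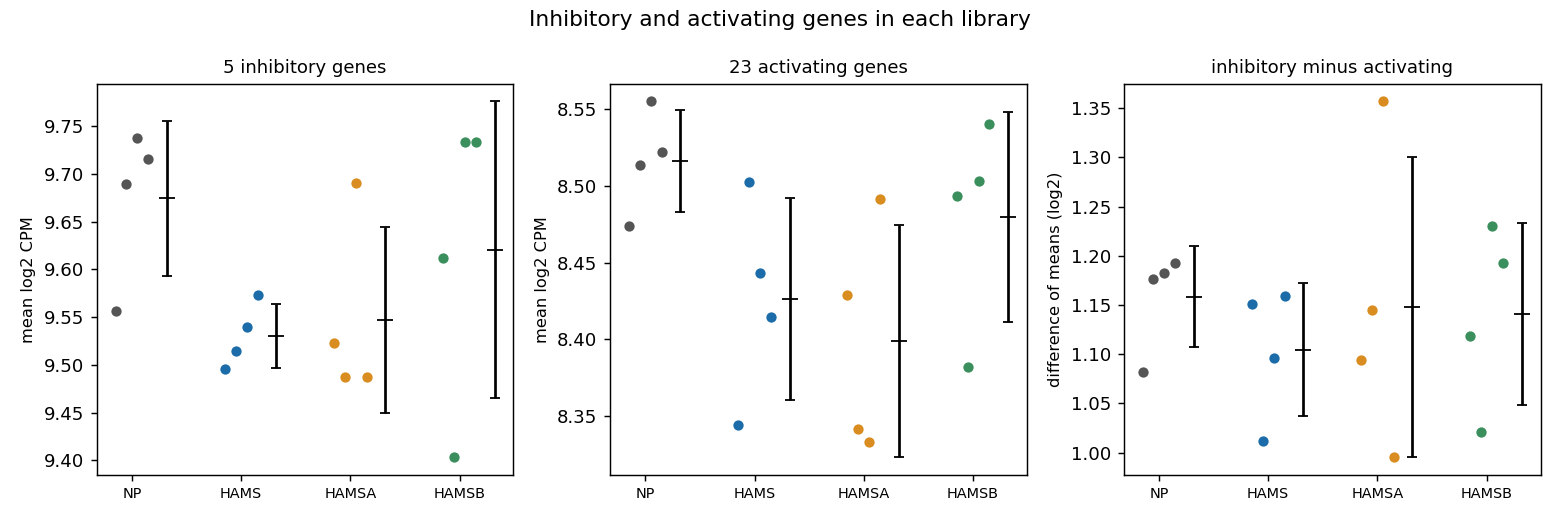
Mean log2 CPM of the 5 inhibitory genes (left), of the 23 activating genes (middle) and their difference (right) in each library, with the mean and SD of 4 libraries per diet; the axes do not start at 0. The differences overlap between all 4 diets, and HAMSA spans the widest range, from 0.996 to 1.36.

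Other genes of the pathway, 73 measured ones such as further coreceptors, calcium channels and Ras or NFAT regulators, gave few calls. In HAMS against NP 2 rose and 2 fell, 5.48% of the list, close to the 4.33% of all genes called. Ppp3ca, the catalytic subunit of calcineurin that activates NFAT, rose from 111 ± 15.7 to 193 ± 21.97 CPM (0.79 ± 0.13, log2, adjusted p = 0.00413, edgeR), a call that held without any 1 library. Fcrl5, an inhibitory Fc receptor-like gene (−0.99, adjusted p = 0.0303, edgeR), and Cd38 (−0.38, adjusted p = 0.0491, edgeR) fell. The calls of Fcrl5 and Cd38 ended without any 1 of the NP libraries, HAMS 1, HAMS 4 or HAMS 6 (adjusted p 0.0516 to 0.162).

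In HAMSB against HAMS Sh3bp2, an adaptor of Syk and Plcg2 signalling, rose (0.54 ± 0.11, adjusted p = 0.0219, edgeR), and Ppp3ca fell (−0.59 ± 0.13, adjusted p = 0.0307, edgeR). Orai1, the calcium channel opened by store release, rose in HAMSA against HAMSB (0.68 ± 0.14, adjusted p = 0.0381, edgeR) and against NP (0.70 ± 0.14, adjusted p = 0.0377, edgeR). Both calls in HAMSB against HAMS ended without HAMS 4, HAMS 5, HAMS 6 or HAMSB 6, that of Sh3bp2 also without HAMSB 5 and that of Ppp3ca also without HAMSB 1 or HAMSB 2 (adjusted p 0.0555 to 0.108). Both calls of Orai1 ended without HAMSA 2 or HAMSA 3, the first also without HAMSB 1, HAMSB 5 or HAMSB 6 and the second also without NP 3, NP 4, NP 5 or HAMSA 1 (adjusted p 0.0575 to 0.139). HAMSA against HAMS called 0 of the 73 by edgeR, with 8 at an unadjusted p under 0.05 and 0 by DESeq2. HAMSB against NP called 0 by edgeR, with 8 at an unadjusted p under 0.05 and 1 by DESeq2.

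Genes known to be induced by engagement of the receptor form a separate list of 25 measured genes, chosen with earlier results of these data known. In HAMS against NP 8 of them rose and 0 fell, with a median log2 fold change of 0.71 beside 0.01 over all genes, of which 2.27% were called higher. The immediate early gene Ier2 rose from 58.6 ± 2.54 to 135 ± 21.1 CPM (1.21 ± 0.12, adjusted p = 0.000335, edgeR), the nuclear receptor gene Nr4a1 from 31.4 ± 2.70 to 91.5 ± 23.2 CPM and the activation antigen gene Cd69 from 34.2 ± 6.29 to 76.2 ± 13.01 CPM. Dusp2, Nr4a3, Junb, Cd83 and Bhlhe40 were the others, and all 8 stayed called without any 1 library. In HAMSB against HAMS 7 of the 25 fell, among them Ier2, Dusp2 and Nr4a1 (−0.98, −0.74 and −1.28, adjusted p = 0.000485, 0.00164 and 0.00223, edgeR), and the median was −0.28, where 1.24% of all genes were called lower. Of these 7 the calls of Junb and Cd83 ended without HAMS 4, HAMS 6, HAMSB 1, HAMSB 2 or HAMSB 6 (adjusted p 0.0501 to 0.0993). Many other stimuli, the handling of cells included, induce the same genes, and what induced them here was not tested. With the list so chosen, its counts beside the share of all genes are a description and not a test.

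In HAMSA against NP 6 of the induced genes rose (Ier2, Junb, Dusp2, Fosb, Fos and Ccl3), and in HAMSA against HAMSB 3 (Ier2, Dusp2 and Junb). Of all genes 0.606% and 0.586% were called higher in these comparisons. The count in HAMSA against NP was 1 without NP 5, 2 without NP 3 or HAMSA 1, and 4 without NP 1. Without NP 4 all 6 missed the threshold (adjusted p 0.0761 to 0.172), and without HAMSA 2 all but Ier2 did. In HAMSA against HAMSB the call of Ier2 held without any 1 library, while Dusp2 was lost without HAMSA 2, HAMSA 3 or HAMSB 5 and Junb without HAMSA 2, HAMSB 1 or HAMSB 6 (adjusted p 0.0509 to 0.0691). HAMSA against HAMS called 0 of the 25 by edgeR, with 10 at an unadjusted p under 0.05 and 3 by DESeq2. HAMSB against NP called 0 by edgeR, with 3 at an unadjusted p under 0.05 and 0 by DESeq2.

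Beside the members called in HAMS against NP, 10 of the 16 macrophage and monocyte markers were lower in HAMS (edgeR), where 2.06% of all genes were called lower, among them Vcam1 (41.3 ± 18.2 CPM in NP and 4.09 ± 2.44 in HAMS) and Csf1r (33.1 ± 14.4 and 10.7 ± 3.67). That count was 5 without NP 3 and 6 without NP 4. Macrophages also express several of the 30 genes, such as Syk, Lyn, Fcgr2b and Ptpn6. In HAMSB against HAMS, where Swap70 and Dapp1 were called, 0 of the 16 markers were called by edgeR, with 3 at an unadjusted p under 0.05 and 1 by DESeq2. The summed markers in HAMSB (168 to 459 CPM) overlapped those in HAMS (144 to 281 CPM). Other marker lists shifted further in HAMSB against HAMS, with 0 genes called. All 13 red cell and all 13 neutrophil markers had values above 0 (medians 2.92 and 1.48 in log2). So did 19 of 20 T cell markers (median 1.41), while all 10 platelet markers were below 0 (median −0.82). In HAMSB against NP, where none of the 30 genes was called, 2 of the 16 markers were called lower, 10 had libraries that did not overlap, and their median log2 fold change was −1.38. The part of other cells in the values of the 30 genes was not tested.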

How the data were processed

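Stranded poly(A) libraries of splenic B cells from 16 samples (4 per diet) were analysed. STAR, featureCounts (Subread), edgeR and limma are named in the submitters' processing notes; versions, genome build and annotation are not given in the sources used here. Read counts per gene, unscaled, are what the authors deposited. Coordinates and exon lengths are from GENCODE M21 (GRCm38), which matched 37607 identifiers and may not be the authors' annotation. No gene here shares exon sequence with another gene on its strand.

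These counts were fitted with edgeR 4.0.16 under R 4.3.3. Genes passing edgeR's filter (minimum count 10; 15021 genes) were scaled by TMM and fitted with 1 mean per diet over all 16 libraries (12 residual degrees of freedom). Pairs of diets were compared with the quasi-likelihood F-test, with Benjamini-Hochberg adjustment over all 15021 genes and a threshold of 0.05. Log2 fold changes carry the model's SE or 95% interval. CPM are TMM-scaled, and the score of inhibitory against activating genes uses log2 CPM with a prior count of 2. P-values measure the spread between libraries, which the labels do not tie to animals. The fit was also run on simulated counts with known changes, and the outcome is not reported here.

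Genes given library by library are those called in any of the 6 comparisons, filled up to 8 by the smallest p of the test over all diets; genes of the 2 further lists are named, up to 6 a list and comparison, by the smallest p among those called. The 30 genes, the lists and the rules were chosen with earlier results of these data known. One symbol of 213 on the lists had no match. One called gene of the further lists is not reported here. Other settings tried were DESeq2 1.42.0, RLE scaling, totals without TMM, other filters, immunoglobulin genes left out, only the 2 diets compared, a replicate block, the percentage of reads outside exons in the model, libraries grouped by number, and leaving out each library.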

Additional observations from a re-analysis of the deposited data

Results flagged for a closer look

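Single libraries stood apart from the other libraries of their diet in 6 of 124 groups of 4 tested (the CPM of each gene in each diet, and the score of inhibitory minus activating genes), by Dixon's ratio of the gap to the range. Chance alone marks about 1 in 20 groups. NP 1 stood apart for 3 of them. Cd22 had 2054 CPM in NP 1 against 2569 to 2604 in the other NP libraries, Bank1 had 591 CPM against 485 to 497, and the score was 1.08 against 1.18 to 1.19. Grb2 had 319 CPM in NP 5 against 345 to 349 in the other NP libraries. In HAMS 5 Cd72 had 467 CPM against 525 to 536 in the other HAMS libraries. In HAMSB 2 Nfatc1 had 239 CPM against 259 to 263 in the other HAMSB libraries.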

How the results depend on the processing

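The direction of Swap70, Stap1, Cd22, Dapp1, Fyn and Nfatc1 in their called comparisons was the same under every setting run. The score of inhibitory minus activating genes, small in every comparison, changed sign in HAMSA against HAMS, HAMSA against HAMSB and HAMSB against NP with libraries numbered 5 and 6, in HAMSB against HAMS and HAMSA against NP with those numbered 1 to 4, and in some omissions below. Swap70 was called in HAMS against NP and in HAMSB against HAMS under every setting except libraries numbered 5 and 6 (the first) and 1 to 4 (the second). DESeq2 called more of the 30 genes, with 6 in HAMSB against HAMS (4 higher, 2 lower), 1 in HAMSA against HAMS, 5 in HAMSA against HAMSB, 9 in HAMSA against NP and 11 for any difference. Totals without TMM gave 5 in HAMSB against HAMS, and moved the median of all genes by less than 0.1 in log2. Without the filter HAMSA against NP had 1. With only the 2 diets compared, HAMSA against HAMSB had 0 and HAMS against NP 3. Cd22, Fyn and Nfatc1 were then no longer called in HAMS against NP (adjusted p = 0.0553, 0.0757 and 0.0758, edgeR). With the percentage of reads outside exons in the model, HAMSA against HAMSB and HAMSA against NP had 0. Libraries numbered 1 to 4 gave 0 in HAMSB against HAMS, 0 in HAMSA against HAMSB and 8 in HAMSA against NP. Libraries numbered 5 and 6 hold NP 5 alone for NP and HAMSA 6 alone for HAMSA. They moved the score of inhibitory minus activating genes to −0.132 in HAMSA against HAMS, −0.215 in HAMSA against HAMSB and −0.197 in HAMSA against NP. Each of these values rests on HAMSA 6 and does not show a shift of the diet. These subsets hold fewer libraries, and the cause of the other differences was not tested. The share of all genes called under each setting, the replicate block below included, is not given here. The counts thus cannot be read as particular to the 30 genes.

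Same-numbered libraries did not deviate together in every pair (correlation of deviations from the diet means 0.0671 to 0.343 in HAMSB against HAMS and −0.0703 to 0.0201 in HAMS against NP), and the labels tie numbers to nothing. With the replicate block, 3 genes were called in HAMSB against HAMS, 4 in HAMS against NP, 0 in HAMSA against HAMSB and 0 in HAMSA against NP. These included Rasgrp3 in HAMS against NP (−0.52, adjusted p = 0.0433, edgeR) and in HAMSB against HAMS (0.61, adjusted p = 0.0354, edgeR), and Stap1 in HAMSB against HAMS (0.66, adjusted p = 0.0227, edgeR). The block ended the calls of Cd22 in HAMS against NP and HAMSA against NP (adjusted p = 0.0674 and 0.177, edgeR). It also ended those of Dapp1 in HAMS against NP and HAMSB against HAMS (0.0642 and 0.0664) and of Nfatc1 (0.0642). Stap1 was no longer called in HAMSA against HAMSB or HAMSA against NP (0.0642 and 0.110).

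With each library left out in turn, calls ranged from 1 to 2 in HAMSB against HAMS, 0 to 2 in HAMSA against HAMSB, 1 to 5 in HAMS against NP, 0 to 4 in HAMSA against NP and 2 to 5 for any difference, and stayed at 0 in HAMSA against HAMS and HAMSB against NP. Among all genes the same fits called 127 to 240, 13 to 187, 235 to 703, 0 to 589 and 259 to 705 in the order of these ranges. They called 0 to 26 of all genes in HAMSA against HAMS and 0 to 14 in HAMSB against NP. The score ranged from 0.0054 to 0.0762 in HAMSB against HAMS, −0.0259 to 0.0945 in HAMSA against HAMS, −0.0623 to 0.0581 in HAMSA against HAMSB, −0.0794 to −0.0231 in HAMS against NP, −0.08 to 0.0405 in HAMSA against NP and −0.0473 to 0.0222 in HAMSB against NP. Counts for the other pathway genes, induced genes and macrophage markers were added after seeing the data. Whether depth or the number of libraries limits these comparisons was not tested, and the HAMSA libraries were the shallowest.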

Other observations

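HAMSA 3 stood at an end of the 16 libraries for many of these genes. It had the lowest CPM of all libraries for Ptprc (937), Malt1 (282), Bank1 (345), Pik3ap1 (123), Pik3r1 (83.2), Rasgrp3 (181) and Stap1 (68.1). It had the highest CPM of all libraries for Cd79a (3074), Cd79b (2716), Cd72 (678) and Ptpn6 (1306), and the highest score of inhibitory minus activating genes (1.36). HAMSA 3 was also the library with the fewest counts (15053965), and 11.2% of its reads lay outside exons, where the 16 libraries ran from 9.76% to 16.9%.

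HAMS libraries fell apart in a like way for Malt1, which had 756 and 589 CPM in HAMS 5 and HAMS 6 and 397 and 474 in HAMS 1 and HAMS 4. Bank1 had 770.3 and 748 CPM in HAMS 5 and HAMS 6 against 492 and 601 in the other HAMS libraries. Ptprc had 2025 and 1935 CPM against 1278 and 1463. Cd79b went the other way, with 1269 and 1444 CPM in HAMS 5 and HAMS 6 and 2209 and 2032 in HAMS 1 and HAMS 4. The share of reads outside exons was 16.4% and 14.8% in HAMS 5 and HAMS 6 against 13.04% and 11.2% in HAMS 1 and HAMS 4. These patterns were noticed in the values and were not tested.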
